A study of Mus musculus with 9 samples.

Results

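Embryoid bodies at day 7 of differentiation were compared with embryoid bodies at day 3, on 6 of the 9 arrays of the study: 3 at day 7 and 3 at day 3, chosen by their labels alone. Each day holds 1 array of a wild type mouse embryonic stem (ES) line, 1 of a PKm1 knock-in line (PKm1KI) and 1 of a PKm2 knock-in line (PKm2KI), and undifferentiated cells of the same 3 lines, kept with LIF, make up the other 3 arrays. Embryoid bodies are aggregates of ES cells, grown here in floating culture without LIF, the cytokine that keeps mouse ES cells undifferentiated. The knock-in alleles concern Pkm, the gene of the glycolytic enzyme pyruvate kinase M, whose M1 and M2 isoforms come from alternative splicing. Total RNA was labelled with Cy3 and read on 1-colour Agilent arrays, and the study set out to follow differentiation into the germ layers. Each genotype is 1 line, and the labels used here say nothing of clones or feeder cells. With 1 array per line and day, the lines serve as the replicates of a day. Line was a block in the fit, so p-values measure how unevenly the lines changed between days, over all 9 arrays, undifferentiated ones included. A difference between the days within 1 line has no test.

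As an embryoid body grows, its outer layer becomes primitive endoderm, which gives visceral endoderm (an absorptive epithelium that secretes carrier proteins such as alpha-fetoprotein) and parietal endoderm (which lays down basement membrane). Its inner cells first resemble the epiblast of the embryo, and can then pass through a primitive-streak-like step to mesoderm and definitive endoderm or turn to neural ectoderm. In whole cultures, fewer cells of a type and less RNA per cell cannot be told apart.

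The 3 day 7 arrays differed among themselves. Over the 15016 genes tested, log2 signals at day 7 and day 3 of the same line correlated at 0.940 in the wild type line, 0.895 in the PKm1KI line and 0.975 in the PKm2KI line. The PKm2KI day 7 array correlated at 0.950 to 0.975 with the day 3 arrays and at 0.910 to 0.943 with the other day 7 arrays. At least 2-fold higher signals at day 7 were found for 12.4% of genes in the wild type line, 16.6% in the PKm1KI line and 7.17% in the PKm2KI line, and at least 2-fold lower ones for 11.9%, 18.3% and 3.66%. Summed signals of 5 pluripotent cell markers (linear scale; wild type, PKm1KI and PKm2KI, the order used throughout) were 47875, 23252 and 82489 at day 7, against 64945, 76308 and 72544 at day 3. They were higher at day 7 in the PKm2KI line and lower in the others. The PKm2KI day 7 array was alone on its slide, and no line had both days on 1 slide.

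**Figure D1:**
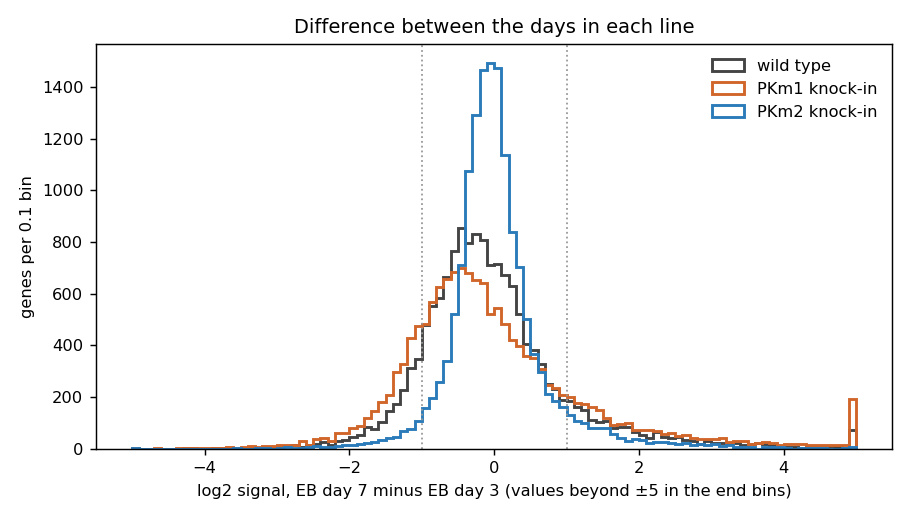
Number of genes (vertical axis) by the log2 difference of EB day 7 minus EB day 3 (horizontal axis) in the wild type, PKm1 knock-in and PKm2 knock-in lines, 1 array against 1 array each, with dotted lines at 2-fold. The PKm2 knock-in distribution is the narrowest, with 7.17% of genes at least 2-fold higher and 3.66% at least 2-fold lower at day 7.

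In the fit over all arrays with line as a block, 0 of 15016 genes (0%) had an adjusted p under 0.05 in limma, and the smallest adjusted p was 0.0566. At an unadjusted p under 0.05 there were 4561 genes (30.4%), where chance gives 750.8. Of these, 1722 (11.5%) were higher and 2839 (18.9%) lower at day 7, so 37.8% of them were higher. This split depended on the scaling: with arrays scaled on the probes detected on all of them, 2603 were higher and 1592 lower, so 62.1% were higher, and the median change of all genes was 0.09 in place of -0.13. List medians below are on the first scaling and are read beside -0.13.

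Leaving out 1 embryoid body array at a time gave 0 calls without the wild type day 7 array or without any of the 3 day 3 arrays, 2 without the PKm1KI day 7 array, and 2590 (17.2%) without the PKm2KI day 7 array. Of those 2590, 1171 (7.8%) were higher and 1419 (9.45%) lower at day 7. In the PKm2KI line itself, 2124 of them differed in the same direction and 400 did so by at least 2-fold. Of all genes, 10.8% differed at least 2-fold in that line, in either direction. That fit still held the PKm2KI day 3 array, which the line difference shares, so the agreement is not independent of it. Below, "reduced fit" names this fit without the PKm2KI day 7 array, and a gene is said to pass only in it. No gene passed over all lines, and a reduced-fit p says nothing of the PKm2KI line at day 7. The main fit is that over all arrays. Of the single leave-outs the reduced fit gave by far the most calls, so its p-values and counts are descriptive and do not replace the main fit. Genes were named by a fixed rule on the size of their changes, and those outside it (such as Gata4, T and Cdkn2c) were chosen after their values were seen.

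The 5 genes with the smallest p over all lines in each direction are given first. Hoxb9, a homeobox gene of posterior identity, read 9.33, 7.67 and 6.96 at day 7, against 3.96, 3.46 and 3.07 at day 3 (log2 signal). No day 3 array was well above background for it, so it was at least 13.6-fold higher at day 7 (log2 change 4.49 ± 0.36, limma adjusted p = 0.0566). Such bounds set the mean of the brighter day against each dim array's lowest detected signal or, where higher, the probe's own signal. The ± of a log2 change, here and below, is the moderated standard error of the limma fit over all 9 arrays. It is not the spread of the 3 line differences. Fbln5, which encodes the elastic fibre protein fibulin 5, read 7.51, 7.23 and 7.34 at day 7, against 3.91, 3.77 and 4.25 at day 3, and was at least 8.79-fold higher. Nxpe4, Sobp and the GTPase gene Rhoj completed the 5 on the higher side, with log2 changes of 2.81, 2.87 and 3.07. On the lower side stood Jph4, which encodes a junctophilin, at 5.99, 5.68 and 4.76 at day 7, against 8.30, 7.83 and 7.31 at day 3, and Ccno, Bicdl2, Rasd2 and Tmem54, with log2 changes of -2.90, -1.85, -1.67 and -1.55. None of the 10 had overlapping days, which follows in part from picking them by the p of this contrast. In undifferentiated cells the 5 genes of the higher side were well above background on 3 of 3 arrays. Hoxb9 read 8.03, 7.03 and 7.40 there, and Fbln5, Nxpe4, Sobp and Rhoj averaged 8.39, 6.47, 8.16 and 5.38, above their day 3 means. The 5 genes of the lower side averaged less in undifferentiated cells than at day 3. Of all genes, 10.1% had all day 7 arrays above all day 3 arrays and 21.5% had them below.

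Secreted carrier genes of visceral endoderm had the highest median of the 42 lists, with wide gaps between lines. All 15 of the 15 tested (of 22 listed) were higher at day 7 over the lines, with a median log2 change of 3.07. Line medians were 1.73, 7.73 and 0.87, and leaving out single arrays or lines gave medians of 1.39 to 4.51. Only genes well above background on at least 3 of the 9 arrays were tested. Afp and Ttr reached that mark through day 7 alone. The count, the median, its rank and the overlap of days are thus partly set by the filter. The same can hold for other dim genes below. Afp, which encodes alpha-fetoprotein, read 9.10, 17.70 and 6.30 at day 7, against 2.34, 2.32 and 2.40 at day 3, where no array was well above background. It was at least 112-fold higher on average (adjusted p = 0.0875; reduced fit 0.0272), with the PKm1KI line far above the others. Ttr, which encodes the thyroid hormone carrier transthyretin, read 9.47, 15.15 and 8.71 at day 7, against 2.99, 3.27 and 2.64 at day 3, and was at least 118-fold higher. Ctsh, a lysosomal protease gene, was detected on all 6 arrays and read 12.84, 16.61 and 11.32 at day 7, against 7.45, 6.77 and 6.50 at day 3 (103-fold higher, adjusted p = 0.0692; reduced fit 0.0158). All day 7 arrays lay above all day 3 arrays for 9 of the 15 genes, against 10.1% of all genes. In the reduced fit 5 passed upwards, against 7.8% of all genes.

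Other carriers were high in 1 line. Fgb, which encodes a fibrinogen chain, read 5.44, 14.00 and 5.01 at day 7, against 3.10, 2.54 and 2.65 at day 3. Serpina1a, a protease inhibitor gene, read 5.31, 12.25 and 3.52 at day 7, against 3.57, 4.52 and 4.19 at day 3. Apoa2, an apolipoprotein gene, was bright on both days, at 11.09, 15.02 and 11.41 at day 7, against 11.72, 11.77 and 11.90 at day 3. In each of the 3 genes the PKm1KI day 7 array was the highest of the 6 arrays, and none passed. Summed over 7 visceral endoderm markers, signals were 2461, 302767 and 2545 at day 7, against 466, 282 and 147 at day 3.

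Promoters of the carrier genes were searched for short motifs. Each window was the 300 bases from 250 before to 50 after the first start listed for a gene (RefSeq, GRCm38.p6), which need not be its outermost start. In these windows, 1 of 11 carrier promoters held the shorter of the HNF1 motifs tried, against 0.437% of all 27025 promoters. The longer one (0.118%) and the HNF4 motif CAAAGTCCA (0.477%) were each in 0 of 11. The promoter with the match, in capitals, is that of Afp, which is printed for that reason and does not stand for the list.
Afp, chr5:90490464-90490763, plus strand: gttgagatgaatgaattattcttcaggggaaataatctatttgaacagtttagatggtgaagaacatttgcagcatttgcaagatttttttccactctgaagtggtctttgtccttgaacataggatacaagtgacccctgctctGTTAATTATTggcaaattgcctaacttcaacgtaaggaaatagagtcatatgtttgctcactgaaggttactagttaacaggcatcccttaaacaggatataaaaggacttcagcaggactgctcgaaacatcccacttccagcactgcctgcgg

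Receptors and brush border proteins, which take up such carriers, divided the lines. Of 12 tested, 10 were higher over the lines (median 1.81), but line medians were -0.12, 4.19 and 0.31. Dab2, an endocytic adaptor gene, read 9.80, 12.80 and 7.37 at day 7, against 4.01, 3.42 and 5.06 at day 3 (adjusted p = 0.0788; reduced fit 0.0174). Cubn, which encodes the multiligand receptor cubilin, read 6.66, 14.21 and 10.48 at day 7, against 7.05, 6.61 and 5.76 at day 3. Amn, which encodes its partner amnionless, read 5.89, 12.94 and 8.34 at day 7, against 7.91, 7.02 and 4.93 at day 3. Both were higher at day 7 in the knock-in lines and lower in the wild type line. Vil1, which encodes the microvillus protein villin, read 8.89, 11.10 and 6.73 at day 7, against 5.60, 6.13 and 6.46 at day 3 and passed in the reduced fit (0.0142).

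Transcription factor genes of endoderm were higher in all 3 lines for 10 of 15 members, against 18.9% of all genes. Their median log2 change was 2.28, with line medians of 1.32, 3.70 and 0.51. Hnf4a, a nuclear receptor gene of visceral endoderm and liver, read 9.27, 12.73 and 6.78 at day 7, against 4.97, 3.26 and 2.32 at day 3. Sox17, used in primitive and definitive endoderm, read 8.95, 13.10 and 6.86 at day 7, against 5.10, 4.24 and 4.63 at day 3. Foxa2, a pioneer factor gene of endoderm, read 10.33, 13.04 and 8.40 at day 7, against 6.09, 5.35 and 5.63 at day 3. Days were separate for these genes, and for the GATA factor genes Gata4 and Gata6, with log2 changes of 4.41 and 4.41. All 5 passed in the reduced fit (0.0203 to 0.0355), against adjusted p-values of 0.0812 to 0.0976 over all lines. Hhex and Klf5 differed by 0.12 and -0.01 only.

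Basement membrane and parietal endoderm genes had the same order of lines, with line medians of 0.85, 4.51 and 0.51. All 15 of the 15 tested were higher over the lines (median 2.09). Col4a1, which encodes a collagen IV chain, read 12.05, 15.93 and 10.04 at day 7, against 7.45, 6.29 and 7.69 at day 3, and its neighbour Col4a2 differed by 4.77, 10.21 and 3.40. Plat, which encodes tissue plasminogen activator, read 8.94, 10.90 and 6.17 at day 7, against 3.71, 3.67 and 3.33 at day 3 (at least 21.8-fold higher, adjusted p = 0.0692; reduced fit 0.00732). These 3 genes had no overlap of the days. The laminin gene Lama1 differed by -0.46, 4.51 and 0.63, so it was higher at day 7 in the knock-in lines and lower in the wild type line.

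Among 13 genes of definitive endoderm and gut, 10 were higher over the lines (median 1.12). Tmprss2, an epithelial serine protease gene, read 9.05, 12.73 and 5.87 at day 7, against 3.03, 2.37 and 2.52 at day 3 (at least 31.8-fold higher). Cer1, which encodes a secreted antagonist of Nodal and BMP made by anterior visceral and definitive endoderm, read 10.83, 7.70 and 3.66 at day 7, against 2.32, 2.32 and 2.44 at day 3. Its highest level was in the wild type line, and it passed in the reduced fit (0.0158). Simple epithelial keratins, which mark visceral endoderm as well as trophoblast, differed by line: Krt18 read 16.01, 16.90 and 10.99 at day 7, against 11.49, 10.55 and 10.44 at day 3. Krt8 and Krt19 had the same pattern, and the 3 keratin genes had reduced-fit adjusted p-values of 0.0172 to 0.0276, against 0.143 to 0.189 over all lines. The list of trophoblast and simple epithelial keratin genes was higher over the lines for 13 of 14 members (median 1.77, line medians 2.15, 3.44 and 0.38). Summed signals of 4 trophoblast markers were 1517, 631 and 158 at day 7, against 147, 72 and 103 at day 3, higher at day 7 in every line, and their part in these differences was not tested. Of these markers, Tpbpa was below detection on all 6 arrays, and Elf5 was detected on the PKm1KI day 7 array alone.

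**Figure D2:**
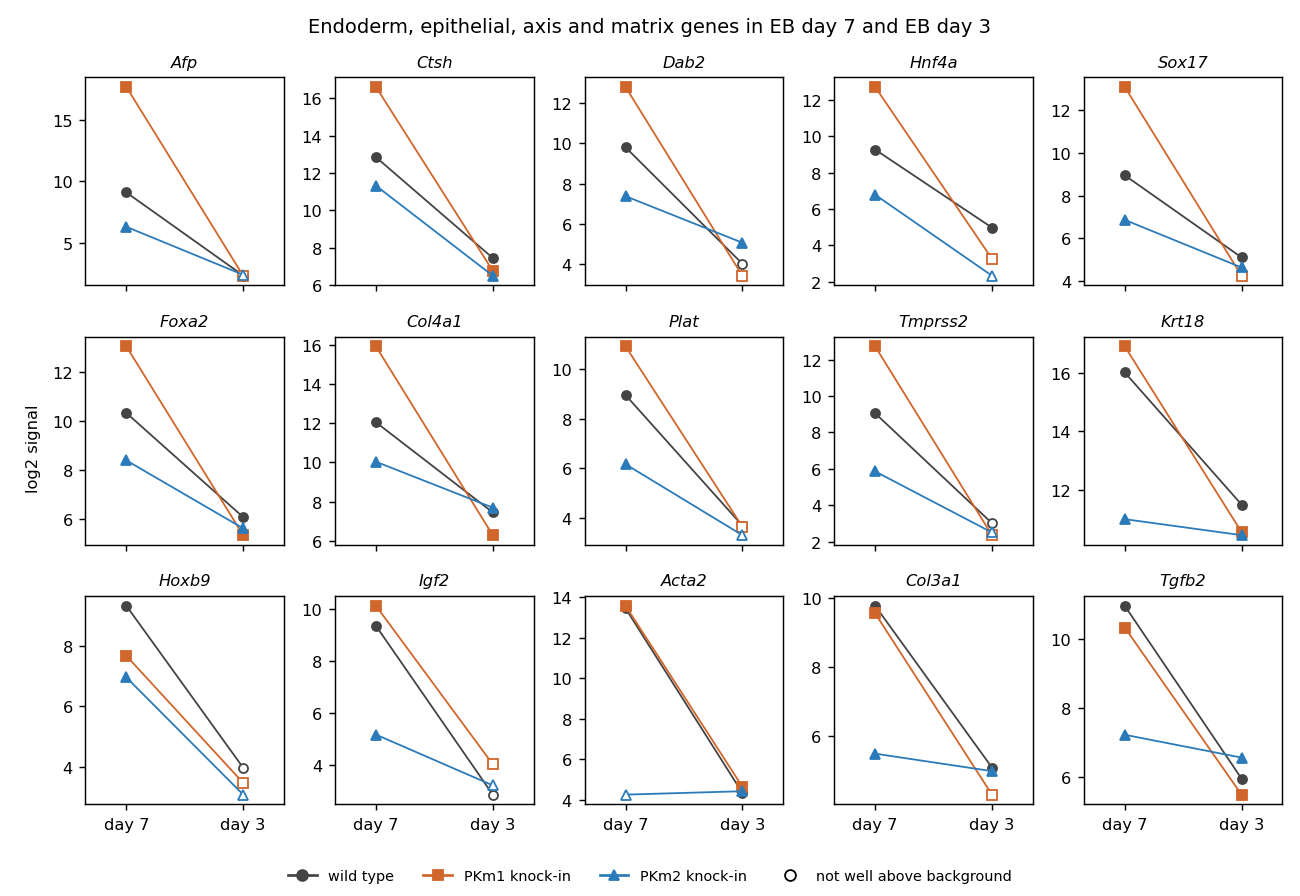
Log2 signal (vertical axis, own scale per panel) of 15 genes, picked as examples after their values were seen, at day 7 and day 3 (horizontal axis), with 1 line per cell line and open symbols where a probe was not well above background. Afp is highest at day 7 in the PKm1 knock-in line (17.70), whereas Acta2 is about as high in the wild type line (13.46) as in the PKm1 knock-in line (13.59).

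Primitive streak genes had a median of 1.17, with line medians of 1.62, 2.10 and -0.08. T, which encodes the streak and notochord factor brachyury, differed by 3.26, 2.81 and -0.08 (reduced fit 0.0204). Gsc, an organizer homeobox gene, read 8.66, 7.83 and 4.46 at day 7, against 6.03, 4.13 and 3.95 at day 3 (reduced fit 0.0147). Mesp2, which acts in somite segmentation, was lower in 3 of 3 lines, by a log2 change of -1.15 (reduced fit 0.0261).

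Of 17 early mesoderm genes, 13 were higher over the lines (median 1.26, line medians 1.24, 1.57 and -0.03) and 9 passed upwards in the reduced fit, against 7.8% of all genes. In the PKm2KI line 8 of 17 were higher. Hand1, a bHLH factor gene of extraembryonic and lateral mesoderm, read 6.94, 6.93 and 3.70 at day 7, against 3.71, 2.55 and 2.32 at day 3, where it was below detection. Foxc1, a forkhead gene of paraxial mesoderm, read 7.17, 5.82 and 2.33 at day 7, against 2.32, 2.32 and 2.36 at day 3, the day 3 values lying at or near the floor of 2.32. Pdgfra, a receptor gene used in primitive endoderm as well as mesoderm, read 3.48, 12.06 and 6.80 at day 7, against 2.63, 3.07 and 3.78 at day 3. The PKm1KI line was highest at day 7 for Pdgfra and the wild type line for Foxc1. Meox1, a somite gene, was lower in 3 of 3 lines, at -2.76, -3.33 and -0.71, and did not pass (reduced fit 0.0687).

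Cardiac genes had a median of 0.50 over 19 members, and of -0.02 where only genes detected on all 9 arrays of the study were kept. Myl3, a myosin light chain gene, read 9.69, 13.05 and 6.92 at day 7, against 5.06, 5.95 and 4.76 at day 3 (reduced fit 0.00756). Tnnt2, which encodes cardiac troponin T, was at least 1.83-fold higher on average. Its PKm2KI day 7 array was not well above background, so the bound does not cover that line. Myh6, a cardiac myosin heavy chain gene, was lower in 3 of 3 lines, at 8.24, 7.57 and 7.68 at day 7, against 9.34, 9.39 and 8.67 at day 3 (reduced fit 0.034). Myh7, which encodes the other cardiac heavy chain, was higher in the wild type and PKm1KI lines and differed by -0.36 in the PKm2KI line. Summed signals of 5 heart markers were 630, 483 and 296 at day 7, against 820, 759 and 468 at day 3. Such a linear sum is weighted to the brightest markers, and Myh6 is 1 of the 5. Detection went the other way, with 5, 5 and 3 of the 5 well above background at day 7, against 3, 3 and 2 at day 3. Tnnt2 and Actc1 were below detection on every day 3 array and on the PKm2KI day 7 array.

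Blood genes were lower for 11 of 13 members (median -0.51), and for 8 on the detected-probe scaling. Runx1, a regulator of blood stem cell formation, had the largest change and went the other way, at 6.27, 8.08 and 4.07 at day 7, against 4.84, 4.31 and 4.32 at day 3 (log2 change 1.65, adjusted p = 0.215; reduced fit 0.0341). It was higher at day 7 in the wild type and PKm1KI lines and lower in the PKm2KI line. Tal1, a regulator of the first blood cells, read 4.02, 3.77 and 4.42 at day 7, against 4.68, 5.65 and 6.04 at day 3, and was below detection at day 7. It was at least 2.50-fold lower at day 7 (adjusted p = 0.0772; reduced fit 0.0514). The embryonic globin gene Hba-x was below detection on all 6 arrays. Etv2, which drives blood and endothelial precursors from mesoderm, read 6.52, 5.93 and 7.30 at day 7, against 9.57, 9.81 and 8.70 at day 3 (log2 change -2.78 ± 0.44, adjusted p = 0.0692; reduced fit 0.00732), and the days did not overlap. Flt1, which encodes a VEGF receptor of endothelium and of trophoblast, was higher in 3 of 3 lines, at 10.52, 12.73 and 7.16 at day 7, against 4.80, 4.77 and 4.14 at day 3 (reduced fit 0.0131). The endothelial list had a median of -0.16, which changed sign in 6 of 21 alternatives.

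Neural ectoderm genes were divided, with 11 of 22 higher and 11 lower, and their median of 0.04 changed sign in 6 of 21 alternatives. Irx3, a homeobox gene of the neural plate, read 7.93, 8.77 and 5.67 at day 7, against 4.61, 5.04 and 5.34 at day 3. Pax3, a paired box gene of the dorsal neural tube, read 8.44, 7.23 and 5.77 at day 7, against 4.88, 5.26 and 4.95 at day 3. Neurod1, a neuronal differentiation gene, read 5.80, 3.78 and 3.83 at day 7, against 6.88, 6.91 and 6.60 at day 3. Irx3 and Pax3 were higher in 3 of 3 lines and Neurod1 lower, and the 3 genes passed in the reduced fit (0.0158 to 0.047). Sox1, an early neural marker, differed by 1.81, 1.19 and 0.96 and did not pass (reduced fit 0.141). Among neural crest genes, Sox9 and Ets1 were higher and Erbb3 lower (log2 changes 2.25, 1.82 and -1.59), and all 3 passed in the reduced fit (0.0135 to 0.0417). In surface ectoderm, Dsp, which encodes desmoplakin of desmosomes, differed by 2.53, 4.73 and 0.16, and the keratin gene Krt17 by -2.86, -4.46 and -0.66.

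Hox genes, which specify position along the body axis, were higher for 16 of 17 tested (of 29 listed, the others being too dim). The median was 1.54, with line medians of 1.96, 2.28 and 0.67, and it was 0.50 with normexp background correction. In 14 of the 17 the direction was upwards in 3 of 3 lines, against 18.9% of all genes. Their median log2 signal was 5.63, 5.48 and 5.80 in undifferentiated cells, 3.94, 4.05 and 4.10 at day 3 and 5.91, 6.91 and 4.91 at day 7, so day 3 was the lowest stage in every line. Hoxb4 read 7.62, 9.09 and 6.89 at day 7, against 3.08, 4.55 and 5.21 at day 3 (reduced fit 0.0158). Hoxc9 was at least 4.46-fold higher on average, though its PKm2KI day 7 array was not well above background, so the bound does not cover that line. Hoxb5 went the other way, at -4.13, -1.66 and -0.28.

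Fibroblast and matrix genes were higher in the wild type and PKm1KI lines, with line medians of 2.74, 2.24 and 0.01 for 18 genes, and genes of epithelial-mesenchymal transition had line medians of 1.84, 1.90 and 0.06 for 16 genes. Acta2, which encodes smooth muscle actin, read 13.46, 13.59 and 4.25 at day 7, against 4.33, 4.64 and 4.41 at day 3 (adjusted p = 0.139; reduced fit 0.00488). Col3a1, a fibrillar collagen gene, read 9.78, 9.56 and 5.49 at day 7, against 5.08, 4.30 and 4.98 at day 3. Tgfb2, a growth factor gene, read 10.95, 10.32 and 7.22 at day 7, against 5.95, 5.48 and 6.56 at day 3 and passed in the reduced fit (0.00362). For all 3 genes the wild type and PKm1KI lines were close to each other at day 7 and the PKm2KI line was lower. Mgp, a matrix inhibitor of calcification, was lower at day 7 in 3 of 3 lines, at -4.71, -3.63 and -2.01 (reduced fit 0.0123). Summed signals of 7 fibroblast and feeder cell markers were 4015, 5868 and 490 at day 7, against 1270, 919 and 636 at day 3, with Lum below detection on all 6 arrays, and their part in these differences was not tested.

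Core pluripotency genes were lower for 14 of 16 members, with a median of -0.66 and line medians of -0.54, -1.27 and -0.03. Pou5f1, which encodes the pluripotency factor Oct4, read 14.45, 13.05 and 14.97 at day 7, against 15.17, 15.04 and 15.14 at day 3 (log2 change -0.97 ± 0.38, adjusted p = 0.151; reduced fit 0.0572). Nanog went the other way and was higher in 3 of 3 lines, at 7.58, 8.32 and 8.60 at day 7, against 6.67, 6.91 and 7.18 at day 3 (log2 change 1.24 ± 0.21, adjusted p = 0.0715; reduced fit 0.0345). The days did not overlap for either gene. Zfp42, which encodes the ES cell marker Rex1, differed by -0.11, -1.59 and 0.58. The naive list had line medians of -0.13, -1.54 and 0.46, and its median of -0.37 changed sign in 2 of 21 alternatives.

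Genes of the formative epiblast, the state between naive cells and germ layers, were lower over the lines for 12 of 17 members (median -0.71), but the lines were divided, with a line median of 0.28 in the wild type line, where 11 of 17 members were higher, and of -0.87 in the PKm2KI line, the PKm1KI line being lower still. In the reduced fit 3 passed upwards, against 7.8% of all genes, and 1 downwards, against 9.45%. Car14, a carbonic anhydrase gene, was higher in 3 of 3 lines (log2 change 1.69, adjusted p = 0.0801; reduced fit 0.0428). Etv4, an ETS factor gene induced by FGF signalling, read 11.78, 11.34 and 11.84 at day 7, against 13.52, 13.58 and 13.61 at day 3 (log2 change -1.91 ± 0.23, adjusted p = 0.0566; reduced fit 0.0203), with no overlap. Dnmt3b, a de novo DNA methyltransferase gene, was lower in 3 of 3 lines, with a log2 change of -1.31 ± 0.31, and did not pass (reduced fit 0.0742). Fgf5, an epiblast marker, read 10.83, 10.48 and 8.97 at day 7, against 6.66, 8.16 and 9.85 at day 3. It was higher at day 7 in the wild type and PKm1KI lines, while the PKm2KI line had the highest of the day 3 values.

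Of 14 Nodal signalling genes, 9 were lower and 5 higher over the lines (median -0.59). In the reduced fit 2 passed upwards, against 7.8% of all genes, and 2 downwards, against 9.45%. The Nodal ligand genes Nodal and Gdf1 were lower in 3 of 3 lines (log2 changes -0.91 and -1.43, reduced fit 0.0402 and 0.0151). Furin was higher in 3 of 3 lines (log2 change 1.62, reduced fit 0.0163), as was Cer1, described above. Lefty1, a Nodal antagonist and target, read 12.41, 10.29 and 12.20 at day 7, against 13.66, 14.31 and 11.97 at day 3. BMP signalling genes were higher over the lines for 15 of 17 members (median 0.66), and 2 passed upwards in the reduced fit. Bmp2, a ligand gene expressed in visceral endoderm, read 9.26, 10.81 and 5.54 at day 7, against 4.30, 3.82 and 3.14 at day 3 (at least 18.7-fold higher). The ligand gene Bmp4, 1 of the 2 lower members, differed by -0.23, -1.23 and -0.31. On this scaling the 2 BMP ligand genes had opposite directions in every line. In the wild type line, however, Bmp4 lay close to the median of all genes, -0.17, so its direction there depends on the scaling. Msx2, a BMP target, differed by 3.16, 2.86 and 0.27 (reduced fit 0.00573). Of the Wnt antagonists, Dkk1 was at least 7.69-fold higher, and Sfrp5 read 11.20, 11.24 and 6.96 at day 7, against 7.86, 6.13 and 6.02 at day 3. Members of the FGF list were lower in 11 of 16 genes on this scaling and in 5 on the detected-probe scaling.

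**Figure D3:**
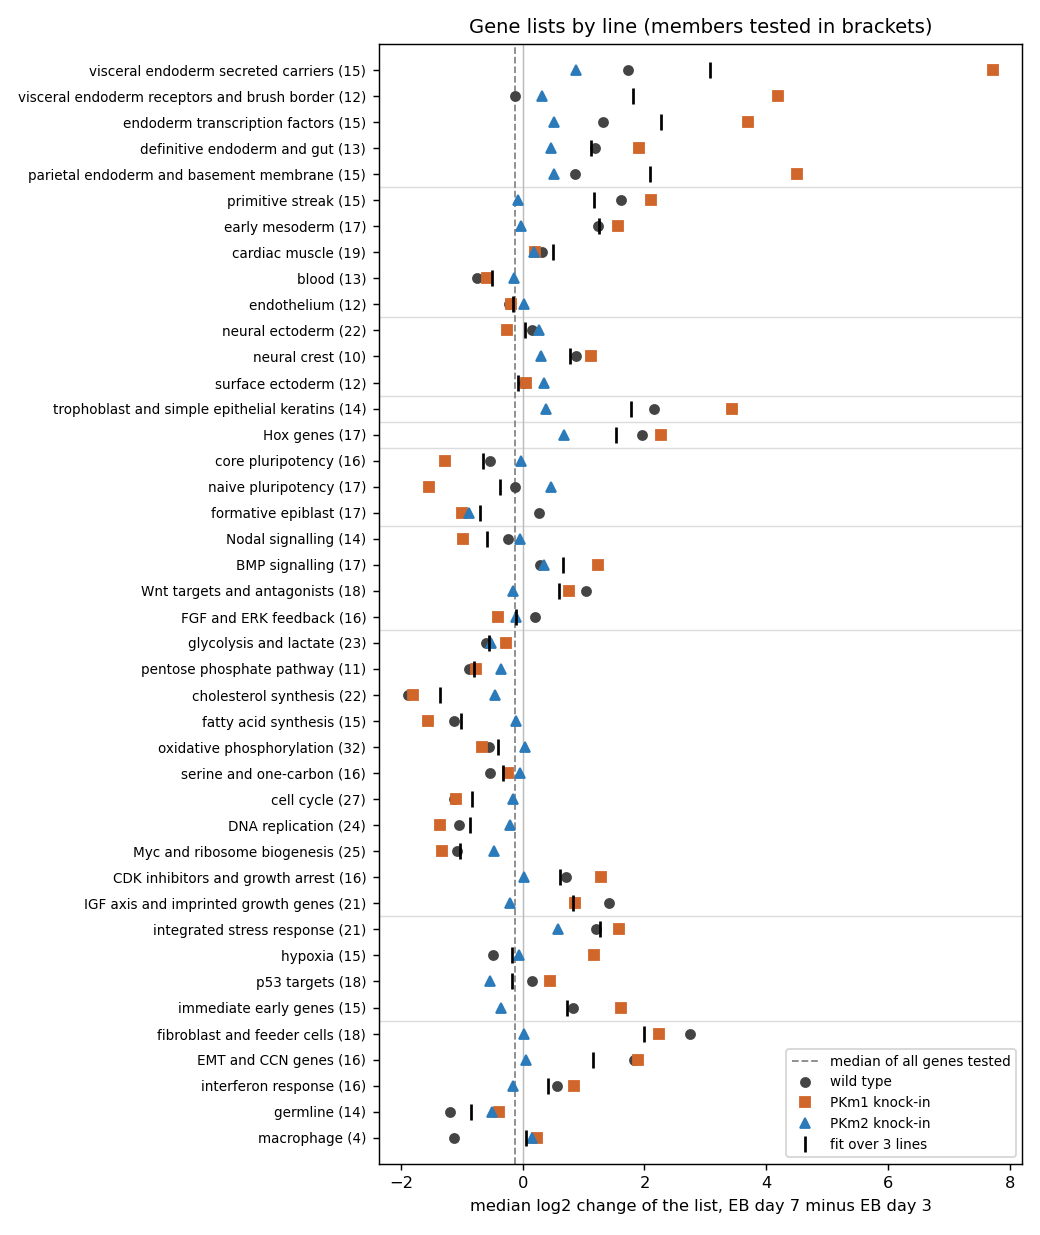
Median log2 change, EB day 7 minus EB day 3 (horizontal axis), of 42 gene lists (vertical axis, members tested in brackets) in each line and in the fit over 3 lines, with the median of all genes tested as a dashed line at -0.13. Secreted carriers lie farthest to the right in the PKm1 knock-in line (7.73), and cholesterol synthesis has the lowest median over the lines (-1.36).

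Genes of DNA replication, the cell cycle and ribosome biogenesis were mostly lower at day 7 than at day 3 over the lines, though 0 were called. All 24 DNA replication genes were lower over the lines (median -0.87), as were 26 of 27 cell cycle genes (median -0.84) and 24 of 25 genes of Myc and ribosome biogenesis (median -1.02). On the detected-probe scaling these counts were 23, 25 and 24. The day 7 arrays lay below all day 3 arrays for 15, 11 and 18 of these genes, against 21.5% of all genes, and 18, 16 and 21 were lower in 3 of 3 lines, against 32.9%. Line medians were -1.05, -1.36 and -0.21 for DNA replication, -1.13, -1.09 and -0.17 for the cell cycle and -1.08, -1.33 and -0.47 for ribosome biogenesis, smallest in size in the PKm2KI line each time. In the reduced fit, 12, 10 and 13 passed downwards, against 9.45% of all genes. Day 3 was the highest of the 3 stages in every line for each of these lists. The median log2 signal of the DNA replication genes was 12.14, 12.71 and 13.02 in undifferentiated cells, 13.22, 13.60 and 13.31 at day 3 and 11.94, 12.23 and 13.12 at day 7. For the cell cycle it was 12.44, 12.45 and 12.66 in undifferentiated cells, 13.10, 13.08 and 12.91 at day 3 and 11.75, 12.17 and 12.59 at day 7. For ribosome biogenesis it was 12.08, 12.52 and 12.52 in undifferentiated cells, 12.91, 13.10 and 12.91 at day 3 and 12.23, 11.76 and 12.56 at day 7. Day 7 was not tested against undifferentiated cells.

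Ccne1, which encodes cyclin E1 of the G1 to S transition, had the largest change of the cell cycle list and read 12.19, 12.51 and 13.69 at day 7, against 15.04, 15.46 and 14.95 at day 3 (5.13-fold lower, log2 change -2.36 ± 0.37, adjusted p = 0.0692; reduced fit 0.0171), with no overlap. Ccnd1 and E2f2, a D cyclin and an E2F factor gene of the same transition, were lower in 3 of 3 lines, with log2 changes of -1.72 and -1.59. The mitotic genes Mki67 and Ccnb1 differed by -0.30 and -0.54. Ccnd2, another D cyclin gene, differed by 1.13, 3.67 and -1.22, higher in the wild type and PKm1KI lines and lower in the PKm2KI line.

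Tk1, which encodes the thymidine kinase of S phase, read 10.77, 11.49 and 11.69 at day 7, against 12.63, 13.07 and 12.78 at day 3 (log2 change -1.51 ± 0.21, adjusted p = 0.0692; reduced fit 0.0187). Rrm2 and Dut, which supply and clean the nucleotide pool, had log2 changes of -1.26 and -1.25. The replicative helicase genes Mcm2 to Mcm7 had log2 changes of -1.22 to -0.64. Nolc1, a nucleolar gene of ribosomal RNA production, read 12.35, 12.54 and 13.38 at day 7, against 14.19, 14.42 and 14.05 at day 3, and Ddx21, a nucleolar helicase gene, differed by -1.86, -2.28 and -0.46. The days did not overlap for Tk1, Nolc1 or Ddx21. Myc, a general driver of ribosome production, differed by -1.23, -1.78 and -0.85 (reduced fit 0.0604), and its relative Mycn by -0.72, -1.45 and -0.76.

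In the promoters of these lists, TTTGGCGC and TTTCCCGC, forms of the E2F motif, were in 5 and 4 of 20 DNA replication promoters (all promoters 0.537% and 1.11%). CCAAT was in 14 of 21 cell cycle promoters (37.9%), TTTGAA and TTTGAATT in 9 and 2 of 21 (18.1% and 1.36%), and CACGTG, the E-box, in 5 of 19 ribosome biogenesis promoters (7.24%). Mcm6 is printed as 1 of the 5 with TTTGGCGC, in capitals on either strand.
Mcm6, chr1:128359656-128359955, minus strand: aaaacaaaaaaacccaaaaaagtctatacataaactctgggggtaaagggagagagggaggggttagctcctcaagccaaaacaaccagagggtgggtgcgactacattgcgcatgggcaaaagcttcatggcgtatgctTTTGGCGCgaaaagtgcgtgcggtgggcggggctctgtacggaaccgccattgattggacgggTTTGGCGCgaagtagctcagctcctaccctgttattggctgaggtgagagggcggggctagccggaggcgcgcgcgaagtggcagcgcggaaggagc

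Inhibitors of cyclin-dependent kinases and growth arrest genes were higher for 13 of 16 members (median 0.61). Cdkn2b, a CDK4/6 inhibitor gene, read 11.35, 10.76 and 6.97 at day 7, against 7.74, 7.45 and 7.34 at day 3. Cdkn2a, its neighbour, which encodes p16 and Arf, read 12.56, 12.83 and 9.96 at day 7, against 9.41, 10.14 and 9.98 at day 3. Both were high in the wild type and PKm1KI lines only and passed in the reduced fit (0.00578 and 0.0131). Cdkn2c, which encodes p18, differed by 0.59, 0.61 and 0.61. Of 21 genes of the IGF axis and imprinted growth genes, 17 were higher over the lines (median 0.82, line medians 1.42, 0.86 and -0.21). Igf2, an imprinted fetal growth factor gene, read 9.34, 10.11 and 5.16 at day 7, against 2.85, 4.02 and 3.21 at day 3 (at least 15.7-fold higher, reduced fit 0.00693). Phlda2, an imprinted gene that restrains placental growth, was lower in 3 of 3 lines, at 6.93, 7.69 and 6.78 at day 7, against 9.98, 9.62 and 9.34 at day 3.

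Cholesterol synthesis had the lowest median of the 42 lists. All 22 genes tested were lower at day 7 over the lines (median -1.36), with line medians of -1.88, -1.80 and -0.45. The days did not overlap for 16 of them, against 21.5% of all genes, and 16 passed downwards in the reduced fit, against 9.45%. Day 3 was the highest stage here too, with a median log2 signal of 9.02, 9.89 and 10.41 in undifferentiated cells, 11.62, 11.80 and 11.42 at day 3 and 9.41, 9.94 and 10.81 at day 7. Idi1, which encodes the isomerase of the isoprenoid units, read 10.39, 10.09 and 11.92 at day 7, against 13.41, 13.47 and 12.94 at day 3 (5.56-fold lower, log2 change -2.47 ± 0.44, adjusted p = 0.0745; reduced fit 0.00874). Lss, which encodes lanosterol synthase, read 8.27, 8.82 and 9.90 at day 7, against 10.94, 11.26 and 10.63 at day 3. Insig1, which restrains the pathway, differed by -3.06, 1.02 and -0.30.

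Of 16 cholesterol gene promoters with a window, 15 held CCAAT, the NF-Y motif (37.9% of all promoters), and 1 held TCACNCCAC, a sterol response form (1.22%), which 0 of 12 fatty acid promoters held. Idi1 and Lss, described above, are printed with CCAAT on either strand in capitals.
Idi1, chr13:8885356-8885655, plus strand: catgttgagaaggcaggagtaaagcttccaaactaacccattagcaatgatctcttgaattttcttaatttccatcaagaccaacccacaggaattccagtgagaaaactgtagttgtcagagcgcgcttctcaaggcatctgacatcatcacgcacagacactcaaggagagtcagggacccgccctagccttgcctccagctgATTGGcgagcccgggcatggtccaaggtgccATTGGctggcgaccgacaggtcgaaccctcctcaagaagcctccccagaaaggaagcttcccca
Lss, chr10:76531355-76531654, plus strand: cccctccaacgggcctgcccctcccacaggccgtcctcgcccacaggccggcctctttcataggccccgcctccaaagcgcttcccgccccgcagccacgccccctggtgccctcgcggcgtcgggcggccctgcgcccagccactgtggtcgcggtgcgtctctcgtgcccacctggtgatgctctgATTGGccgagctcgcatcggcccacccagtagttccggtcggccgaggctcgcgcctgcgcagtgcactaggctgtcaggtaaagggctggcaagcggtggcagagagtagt

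Fatty acid synthesis genes were lower for 12 of 15 members (median -1.01). Acaca, which encodes the carboxylase of the committed step, read 10.98, 11.19 and 12.08 at day 7, against 13.03, 13.27 and 12.89 at day 3 (log2 change -1.65 ± 0.31, adjusted p = 0.0745; reduced fit 0.0131). Me1, the malic enzyme gene that supplies NADPH, was an exception, at 1.29, 3.53 and 0.04 (reduced fit 0.0487).

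Pkm, the edited gene, read 14.67, 13.89 and 13.63 at day 7, against 16.10, 14.72 and 14.31 at day 3. It was lower in 3 of 3 lines, though the lines differed enough for the days to overlap (log2 change -0.98 ± 0.35, adjusted p = 0.127; reduced fit 0.171). Which exons its probe reads was not determined, so it checks no label. Of 23 genes of glycolysis and lactate handling, 18 were lower over the lines (median -0.55), and 0 passed downwards in the reduced fit, against 9.45% of all genes. Slc2a3, which encodes the glucose transporter GLUT3, was higher in 3 of 3 lines, at 15.31, 16.71 and 15.89 at day 7, against 14.93, 15.04 and 14.74 at day 3.

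Of 11 pentose phosphate genes, 10 were lower (median -0.80). G6pdx, the gene of the first enzyme, read 11.30, 11.86 and 11.90 at day 7, against 12.67, 12.98 and 12.71 at day 3 (log2 change -1.10 ± 0.20, adjusted p = 0.0745; reduced fit 0.0272), but G6pd2 is a near-identical copy, so each probe may read both. Oxidative phosphorylation genes were lower over the lines in 31 of 32 (median -0.40, line medians -0.55, -0.67 and 0.04), and 18 of 32 were higher in the PKm2KI line. Over the lines they were lower in 24 on the detected-probe scaling and in 22 with quantile normalization. In folate metabolism, the mitochondrial enzyme gene Aldh1l2 read 7.26, 7.26 and 7.76 at day 7, against 4.35, 4.30 and 6.10 at day 3 (reduced fit 0.0208), whereas the cytosolic Shmt1 had a log2 change of -1.16 (reduced fit 0.0203).

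**Figure D4:**
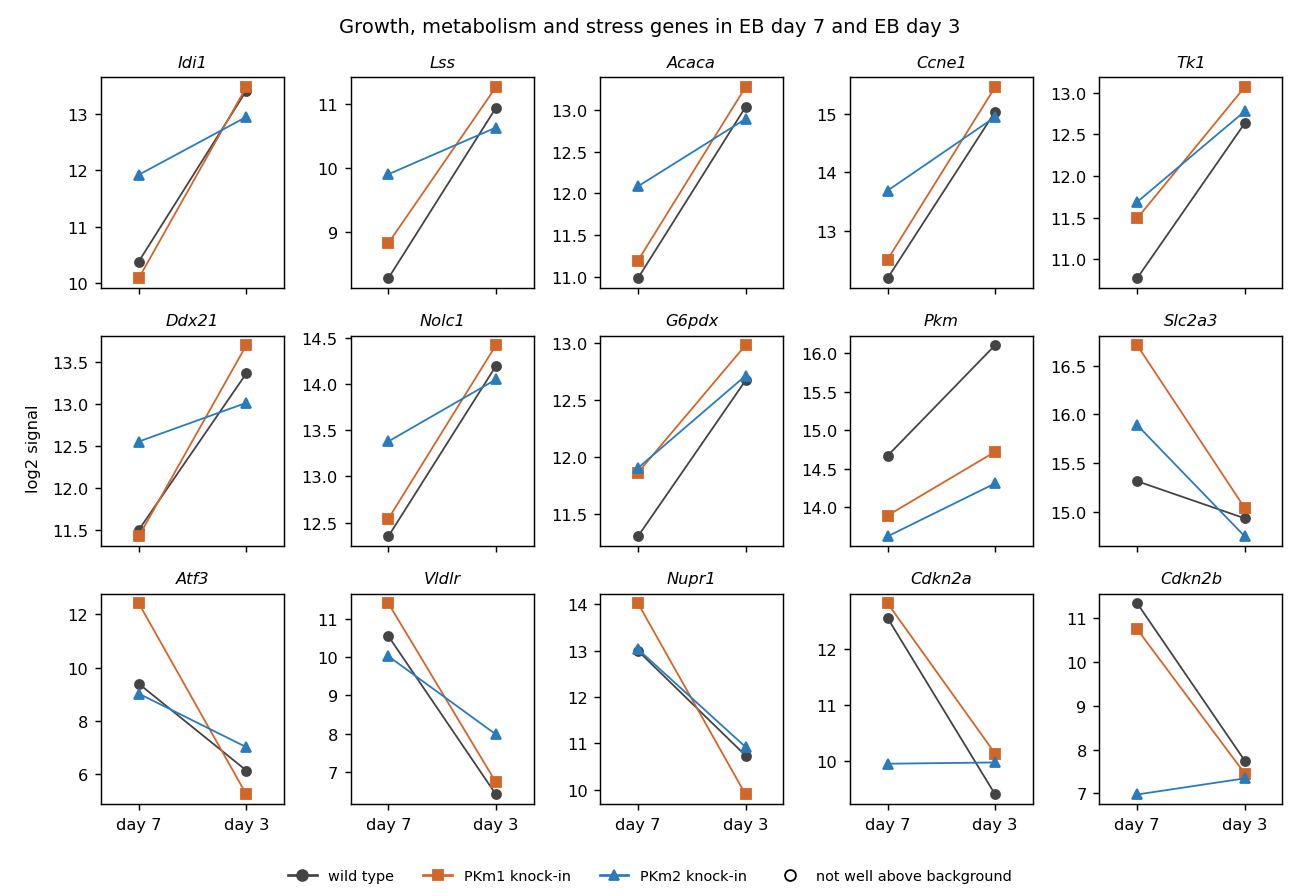
Log2 signal (vertical axis, own scale per panel) of 15 growth, metabolism and stress genes, picked as examples after their values were seen, at day 7 and day 3 (horizontal axis), with 1 line per cell line. Idi1, Ccne1 and Tk1 are lower at day 7 in every line, and Nupr1 and Vldlr are higher in every line.

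Targets of the integrated stress response, in which ATF4 raises amino acid and stress genes, were higher over the lines in all 21 of 21 members (20 with normexp background correction). The median was 1.28, with line medians of 1.21, 1.57 and 0.58. In 17 of 21 the direction was upwards in 3 of 3 lines, against 18.9% of all genes, and 8 passed upwards in the reduced fit, against 7.8%. Day 3 was the lowest of the 3 stages in every line, with a median log2 signal of 13.31, 13.58 and 12.81 in undifferentiated cells, 10.86, 11.17 and 11.76 at day 3 and 13.00, 13.29 and 12.66 at day 7. Nupr1, a stress-induced chromatin protein gene, read 13.00, 14.03 and 13.04 at day 7, against 10.74, 9.90 and 10.92 at day 3 (7.13-fold higher, log2 change 2.83 ± 0.42, adjusted p = 0.0692; reduced fit 0.0224). Atf3, a transcription factor gene, read 9.39, 12.42 and 9.02 at day 7, against 6.13, 5.23 and 7.01 at day 3, and Vldlr, a lipoprotein receptor gene, differed by 4.15, 4.69 and 2.05. The days did not overlap for these 3 genes. Ddit3, which encodes CHOP, differed by 1.21, 2.28 and 0.68 (reduced fit 0.0394). Atf4 itself had a log2 change of 0.30, and the amino acid genes Asns, Slc7a5 and Slc3a2 of 0.59, 0.16 and 0.26.

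TGATGCAA, the ATF4 composite motif, was in 5 of 18 promoters of these genes (0.929% of all promoters), and the looser TGATGNAAN, which takes in the first where another base follows it, in 7 of 18 (4.04%). Atf3 and Nupr1 are printed because they hold TGATGCAA, in capitals on either strand.
Atf3, chr1:191183284-191183583, minus strand: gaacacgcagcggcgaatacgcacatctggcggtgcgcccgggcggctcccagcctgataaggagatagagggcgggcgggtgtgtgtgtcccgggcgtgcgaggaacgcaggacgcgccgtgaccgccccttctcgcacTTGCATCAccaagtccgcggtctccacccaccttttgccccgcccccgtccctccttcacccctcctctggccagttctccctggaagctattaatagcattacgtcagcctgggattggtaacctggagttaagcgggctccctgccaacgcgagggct
Nupr1, chr7:126625421-126625720, minus strand: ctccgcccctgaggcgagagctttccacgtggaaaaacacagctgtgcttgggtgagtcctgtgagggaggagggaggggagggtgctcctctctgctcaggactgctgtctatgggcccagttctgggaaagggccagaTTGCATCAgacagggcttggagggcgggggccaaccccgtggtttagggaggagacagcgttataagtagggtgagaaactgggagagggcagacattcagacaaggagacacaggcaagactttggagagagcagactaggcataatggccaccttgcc
In all, 12 motifs were searched on both strands in 14 pairs of motif and list, chosen with the results known, and 5 pairs had at most 1 match. No test was made, and a match is a description of letters.

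Other stress lists were less even. Hypoxia genes had a median of -0.17 and p53 targets of -0.18, and these changed sign in 9 and 6 of 21 alternatives. Vegfa, an angiogenic factor gene, was higher in 3 of 3 lines, at 10.70, 12.39 and 10.16 at day 7, against 9.23, 8.36 and 9.10 at day 3. B2m, which encodes the light chain of MHC class I, read 12.67, 13.61 and 12.30 at day 7, against 9.85, 10.45 and 10.53 at day 3 (5.99-fold higher, adjusted p = 0.0692; reduced fit 0.0201), while the heavy chain genes H2-K1 and H2-D1 had log2 changes of -0.34 and 0.42.

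Differences within a slide compare different lines. On slide 1, the wild type line at day 7 was set against both knock-in lines at day 3, and on slide 2, the PKm1KI line at day 7 against the wild type line at day 3. List medians within slides 1 and 2 were -1.84 and -1.66 for cholesterol synthesis, -1.03 and -1.22 for DNA replication, -1.12 and -1.27 for ribosome biogenesis and 0.66 and 2.02 for the stress response. They were 1.33 and 8.45 for secreted carriers, 3.14 and 2.64 for endoderm factors and 1.93 and 2.97 for Hox genes, beside -0.14 and -0.22 for all genes. With slide as a block, which leaves out the PKm2KI day 7 array, 1034 genes were called, 699 higher and 335 lower, and 992 of them are among the 2590 of the reduced fit.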

How the data were processed

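Embryoid body RNA of 3 mouse lines at day 7 and day 3 was analysed beside the undifferentiated arrays of the same lines (9 arrays). Per the file headers, the authors deposited Feature Extraction output with 62976 spots per array, in which the processed signal is a background-subtracted intensity with no scaling between arrays, made with Agilent Feature Extraction 10.10 per the submitters' processing notes. The deposited value table equals these intensities within 0.497%.

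Control spots (3671) and 133 to 225 flagged spots per array were left out, and 54.2% to 61.6% of spots were well above background and 0 saturated, with the number of arrays limiting the precision. Signals were scaled to each array's 75th percentile, floored at 5 and taken to log2. A probe counted as well above background where no more of its unflagged spots failed than passed that mark, a definition picked with an earlier count of tested genes in view. Of 55681 probes, 27235 carried 1 symbol, giving 20660 genes. The probe with the highest mean stood for a gene, and 15016 genes well above background on at least 3 arrays were tested with limma 3.58.1 (R 4.3.3; line and day as terms, 4 residual degrees of freedom, Benjamini-Hochberg over all genes, threshold 0.05), a method also tested on simulated data. The normexp alternative used the median spot and background signals; the closing section gives the effect of the alternatives. Same-numbered arrays share a cell line, hence the block; correlations of their deviations were 0.326, 0.051 and 0.230. Named genes were, in each list, up to 3 with the largest change where none was called, the 5 smallest p-values per direction and Pkm. Genes with the most extreme line differences were added from both visceral endoderm lists and the cardiac, blood, core pluripotency and cell cycle lists. Members and lists were chosen with earlier results of these data known. Tables and figures used Python 3.11.15, pandas 2.3.3 and matplotlib 3.10.9.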

Additional observations from a re-analysis of the deposited data

Results flagged for a closer look

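No list of genes had a median at or above 0.5 in 1 line and at or below -0.5 in another (log2). For 7 of the genes named, the difference between the days was at least 1 upwards in 1 line and at least 1 downwards in another, a rule for genes that was added after that result. These differences between lines rest on 1 array per line and day and were not tested. The value given is the gap between the highest and the lowest line difference (day 7 minus day 3). For Fgg, a fibrinogen chain gene, the gap was 8.12, with differences of 0.52, 6.41 and -1.70 in the wild type, PKm1KI and PKm2KI lines. For Amn the gap was 7.94, with -2.02, 5.91 and 3.41. For Pdzk1, a brush border scaffold gene, it was 5.50, with -1.22, 4.27 and 0.34. For Fas, a death receptor gene, it was 5.17, with 2.22, 3.36 and -1.81. For Ccnd2 it was 4.89, with 1.13, 3.67 and -1.22. For Adgre1, a macrophage marker, it was 4.32, with -1.11, 3.21 and 0.46. For Gfi1b, a blood factor gene, it was 3.20, with -1.73, -1.27 and 1.47.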

How the results depend on the processing

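The count of genes called depended on the fit. Against 0 over all lines, it was 36 with normexp background correction (15 higher, 21 lower), 5 with scaling on detected probes (5 higher), 81 with genes detected on all 9 arrays (43 higher, 38 lower), 256 with trend and robust moderation (112 higher, 144 lower), 1034 with slide as a block (699 higher, 335 lower) and 1844 at an adjusted p under 0.1 (727 higher, 1117 lower). Leaving out arrays gave 0 to 2590 calls, 0 to 1171 higher and 0 to 1419 lower. The counts of genes called higher at day 7 and genes called lower at day 7 were 829 and 708 without all PKm2KI arrays. Without the replicate block, that is without pairing by line, there were 6 calls (4 higher, 2 lower). The other alternatives (quantile normalization, the authors' value table, other floors, no filter, mean of probes, only the 6 embryoid body arrays, a 2-fold minimum) called 0.

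Of 42 lists, 33 kept the sign of their median in all 21 alternatives. Medians that moved beyond the spread of lines were those of cardiac genes (0.16 normexp, 0.29 quantile, 0.73 detected-probe scaling, 0.38 no filter, -0.0178 all-array detection, 0.0335 slide block; 0.0335 to 0.69 leaving arrays out), endothelium (0.0923 quantile, 0.0639 detected-probe scaling, 0.11 no filter, 0.12 mean of probes; -0.31 to 0.0184), surface ectoderm (0.15 detected-probe scaling; -0.12 to 0.39), blood (-0.12 no filter; -0.65 to -0.17), glycolysis (-0.34 quantile, -0.32 detected-probe scaling, -0.35 slide block; -0.68 to -0.31), definitive endoderm (1.94 slide block; 0.91 to 1.94), early mesoderm (0.79 to 2.16), germline (-0.98 to -0.15), neural crest (0.31 no filter), Hox genes (0.50 normexp) and the pentose phosphate pathway (-0.52 quantile). The causes were not tested.

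Genes whose direction reversed were Gata1 (0.00642 detected-probe scaling), Tdgf1 (-0.64 mean of probes, -0.28 slide block) and Ttn (0.0599 normexp, 0.21 detected-probe scaling), and, leaving arrays out, with log2 changes of Adgre1 -0.32 to 1.84, Apoa2 -0.56 to 1.38, Ccnd2 -0.0664 to 2.65, Fcgrt -1.13 to 0.47, Fgg -0.59 to 3.66, Gata1 -0.64 to 0.32, Gfi1b -1.50 to 0.15, Pdzk1 -0.96 to 2.31, Tdgf1 -0.33 to 0.65, Ttn -0.39 to 0.60 and Zfp42 -0.88 to 0.26. These reversals came on leaving out arrays of the PKm1KI line (Adgre1, Apoa2, Ccnd2, Fgg, Pdzk1, Ttn, Zfp42), the wild type line (Fcgrt, Gata1, Gfi1b) or the PKm2KI line (Tdgf1).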

Other observations

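Germline genes, which ES cells share in part with early germ cells, were lower over the lines in 11 of 14 members (median -0.86), without the wild type day 3 array the median being -0.15. Nanos3, an RNA-binding factor gene of primordial germ cells, averaged 9.31 ± 0.50 at day 7, against 10.70 ± 0.42 at day 3 (log2 signal, SD, n = 3 each; limma adjusted p = 0.0879, which did not pass). Without the PKm2KI day 7 array, which leaves 2 arrays at day 7, limma gave an adjusted p of 0.0307. Mael, a piRNA pathway gene, read 6.34, 7.97 and 7.06 at day 7 in the wild type, PKm1KI and PKm2KI lines, against 8.29, 8.86 and 8.67 at day 3.

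Of 10 macrophage genes, 4 could be tested, and their median of 0.06 changed sign in 9 of 21 alternatives. Summed signals of 3 macrophage markers were 1068, 2605 and 1461 at day 7, against 739, 1291 and 969 at day 3. Of these, Ptprc was below detection on all 6 arrays, and Adgre1 was detected on the PKm1KI day 7 and wild type day 3 arrays alone. Summed signals of 5 neural markers were 4402, 1540 and 8224 at day 7, against 5942, 5148 and 4836 at day 3. Of these, Neurog2 was below detection on all 6 arrays, and Fabp7 was detected on the wild type day 7 array alone.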
